A study of Mus musculus with 2 samples.

Results

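The immediate early genes *Fos*, *Fosb*, *Jun*, *Junb*, *Egr1*, *Atf3*, *Ier2*, *Nr4a1*, *Dusp1* and *Zfp36* were examined in kidney RNA of *Cnnm2*-deficient mice. The members were chosen by name, as the probes annotated with these 10 symbols. All 10 genes were found among the 31821 gene names with usable spots, each with 1 probe. Kidneys came from Cnnm2fl/fl;Six2-Cre mice (knockout) and from Cnnm2+/+;Six2-Cre mice (control), all 2 months old and without treatment. Both genotypes therefore carried the *Six2-Cre* transgene, and they differed in the floxed *Cnnm2* alleles. *Six2* marks the progenitors of the nephron epithelium, so that cells of other descent in the whole kidney, such as those of vessels and the collecting duct, are not targets of this Cre. Both RNA samples were hybridized together on each of 2 arrays of 2 colours, with the knockout labeled with Cy5 on array 1 and with Cy3 on array 2. How many mice contributed to either RNA sample is not given in the sources used here. The dye swap was therefore treated as a single comparison without replicate mice, and no p-value is given for a member. Each SD below is the spread between the 2 arrays, which covers labeling and hybridization if both carry the same RNA.

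Immediate early genes are transcribed within minutes of a stimulus without new protein synthesis, by transcription factors such as SRF and CREB that are already present in the cell. Many of their products are themselves transcription factors, and others shut the response off again. In kidney, as in other tissues, they are known to respond to growth factors, ischemia and the handling of tissue during dissection. Their transcripts are short-lived, so their levels can change within the time of a dissection.

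None of the 10 genes was changed by the limit used here, a mean log2 ratio of knockout over control of at least 1 in size with the same direction on both arrays. The count was 0 higher and 0 lower, while 0.315% and 0.284% of the 19707 genes tested passed this limit in these directions. *Jun* and *Zfp36* were higher in the knockout sample on both arrays (2 of 10, against 12.1% of all genes tested), and *Egr1* and *Nr4a1* were lower on both (2 of 10, against 15.6%). The other 6 genes had opposite directions on the arrays, which is what following the dyes means below. With each labeling on a single array, an effect of the dye and one of the array cannot be told apart. Together, 40.0% of the members and 27.7% of all genes tested had the same direction under both labelings. The median log2 ratio of the members was -0.10, with a range from -0.51 for *Egr1* to 0.37 for *Dusp1*, beside a median of -0.01 over all genes tested. No common direction was therefore seen, and 4 means were above 0 and 6 below.

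**Figure D1:**
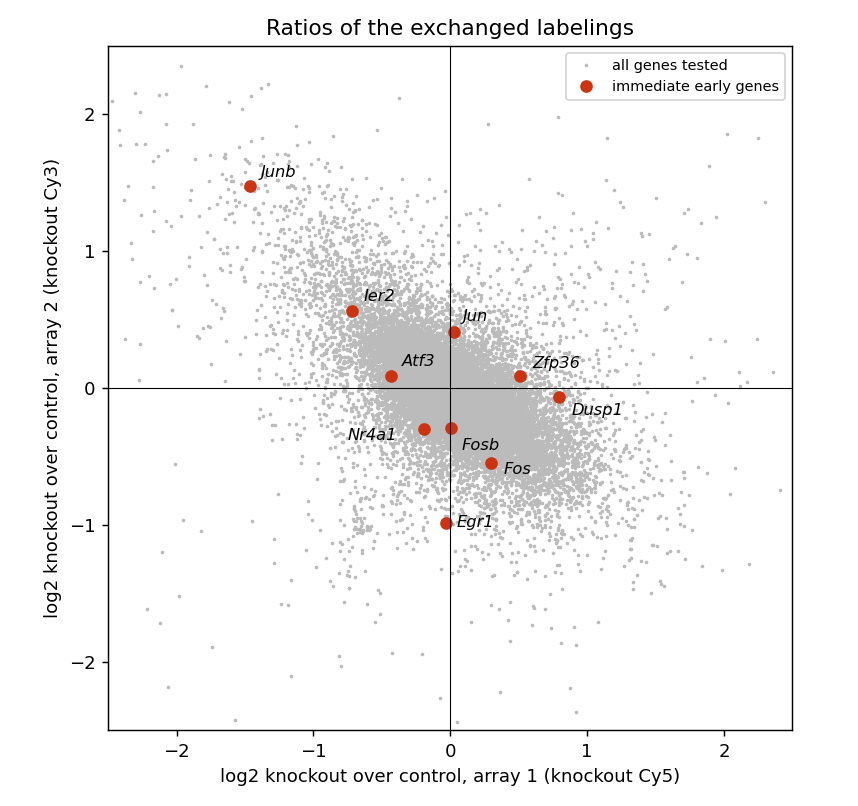
Each point is a gene, placed by its log2 ratio of knockout over control on array 1 (knockout in Cy5, horizontal axis) and on array 2 (knockout in Cy3, vertical axis), with all genes tested in grey and the 10 immediate early genes in red. *Junb* and *Ier2* lie in the upper left, below 0 on array 1 and above 0 on array 2, while *Jun* and *Zfp36* lie above 0 and *Egr1* and *Nr4a1* below 0 on both axes. A total of 58 genes lie beyond the axis limits of 2.5 in size.

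All members were well above background, by the call of the scanner software, in the 4 channels. As a check of the labels, the log2 ratio of *Cnnm2* averaged -2.67 ± 0.30 (SD). The ratios of all genes tested were negatively correlated between the arrays (Pearson's r of -0.51, computed over genes, which do not replicate each other). On each array, between 62.6% and 68.0% of the 43020 gene spots in a channel were well above background. Of 36 markers of tubules, podocytes, vessels, muscle, leukocytes and red blood cells, 35 passed the limit on signal set for the genes tested, a call well above background with either genotype on both arrays. The exception was the B cell gene *Cd79a*. *Pvalb* and *Trpm6*, markers of the distal convoluted tubule, passed the 2-fold limit as lower in the knockout sample, with mean log2 ratios of -1.75 and -1.40, although *Trpm6* fell short of it with normexp background correction and loess, at -0.98. *Slc12a3*, the other marker of this segment, followed the dyes, with -0.78 and 0.19. With background-subtracted signals, whose ratios were centred on the median of each array, all 3 markers of this segment were, however, lower on both arrays.

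With processed signals, the turn of direction with the dyes was greatest among the members in *Junb*, which encodes a partner of FOS proteins in the transcription factor AP-1. Its processed signals were 11.2 in the knockout and 30.9 in the control sample on array 1, and 30.7 and 11.0 on array 2. The signal was thus high in whichever sample carried Cy3. The log2 ratios were -1.47 and 1.47, with a mean of 0.00 ± 2.08 (SD). A contrast between the dyes at least as large was found in 0.629% of all genes tested. *Ier2*, which encodes a nuclear protein of the early response, had the next largest contrast among the members with these signals. Its signals were 28.0 in the knockout and 46.0 in the control sample on array 1, and 62.3 and 42.1 on array 2. The Cy3 signal was again the higher on each array, and the mean log2 ratio was -0.07 ± 0.91 (SD). Spots of both probes were close to their surroundings, with a raw signal of 1.59 to 2.68 times the local background for *Junb* and 2.20 to 3.97 times for *Ier2*. Both contrasts depended on the processing. With normexp and loess the ratios were -0.16 and 0.07 for *Junb* and -0.18 and 0.12 for *Ier2*. Those of *Dusp1* were then further apart, at 0.81 and -0.09. Without background correction and with loess they were -0.40 and 0.47 for *Junb* and -0.33 and 0.34 for *Ier2*. The part of the dim signal in the contrasts of *Junb* and *Ier2* was not tested.

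The probes of these genes are shown because their ratios turned with the dyes, and each is a designed oligonucleotide of 60 bases, given 5′ to 3′ as in the scanner files, with no part set in capitals. On the mm9 build, the *Junb* probe (A_55_P2011106) is placed on chromosome 8 from 87501881 to 87501940, and the *Ier2* probe (A_55_P2163028) on the same chromosome from 87186214 to 87186273. Both have a GC content of 55.0%.
Junb: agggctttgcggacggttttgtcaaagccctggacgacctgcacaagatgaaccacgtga
Ier2: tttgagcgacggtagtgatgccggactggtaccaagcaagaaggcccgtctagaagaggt

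*Jun* and *Junb* encode the JUN side of AP-1, and *Fos* and *Fosb* the FOS side. The *Jun* probe (A_55_P2158990, chromosome 4, 94716928 to 94716987) had signals of 4698 in the knockout and 4612 in the control sample on array 1, and of 5023 and 3784 on array 2. *Jun* was higher in the knockout sample on both arrays, by 0.03 on the log2 scale under the first labeling and 0.41 under the second. The mean was 0.22 ± 0.27 (SD). It is smaller than the SD of the arrays, and 18.6% of all genes tested had a mean of at least this size. Its direction did not depend on the background correction and the dye normalization used with it. The mean lay between 0.20 and 0.22 under the settings tried.

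*Fos* is the member with the best technical replication, since its probe (A_52_P262219, chromosome 12, 86817900 to 86817959) is printed 10 times per array. On array 1, the knockout signals ranged from 133 to 157 around a median of 145, and the control signals from 110 to 125 around a median of 118. The ranges did not overlap, and the knockout sample was the higher. On array 2, the knockout signals ranged from 77.0 to 103 around a median of 92.8, and the control signals from 125 to 141 around a median of 132. Here the ranges did not overlap either, and the knockout sample was the lower. The log2 ratio was above 0 in 10 of 10 spots on array 1, from 0.21 to 0.40, and in 0 of 10 spots on array 2, from -0.70 to -0.40. The SD between spots was 0.055 and 0.10, and the means of the arrays were 0.30 and -0.55. The mean of both arrays was -0.13 ± 0.60 (SD).

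**Figure D2:**
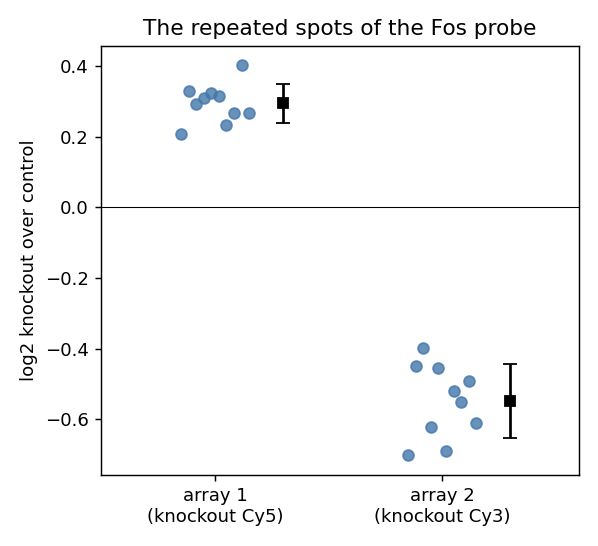
The vertical axis gives the log2 ratio of knockout over control of each of the 10 spots of the *Fos* probe on array 1 and on array 2. Black squares and bars are the mean and SD of the spots, and all spots lie above 0 on array 1 and below 0 on array 2.

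*Fosb*, a second FOS protein that is usually silent in resting tissue, had signals of 51.9 and 51.7 in the knockout and control samples on array 1, and of 41.8 and 51.3 on array 2. The knockout and control signals differed little on array 1, and the knockout was the lower on array 2, with log2 ratios of 0.01 and -0.30 and a mean of -0.14 ± 0.21 (SD). With background-subtracted signals the ratios were -0.03 and -0.17, and without background correction -0.03 and -0.12, so that *Fosb* was lower on both arrays under these settings. Its probe is A_55_P2113051, on chromosome 7 from 19888168 to 19888227. The spots of this probe were also close to their surroundings, with a raw signal of 2.96 to 3.64 times the local background. *Atf3*, a bZIP repressor induced by cell stress and tubular damage, is read by A_52_P452689 (chromosome 1, 192994547 to 192994606). Its signals were 95.8 in the knockout and 129 in the control sample on array 1, and 101 and 95.2 on array 2. The directions were opposite, and the mean log2 ratio was -0.17 ± 0.37 (SD). The AP-1 members therefore gave 1 gene with the same direction on both arrays and 4 whose direction followed the dyes. *Fosb* was among these only with some of the background corrections and dye normalizations.

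**Figure D3:**
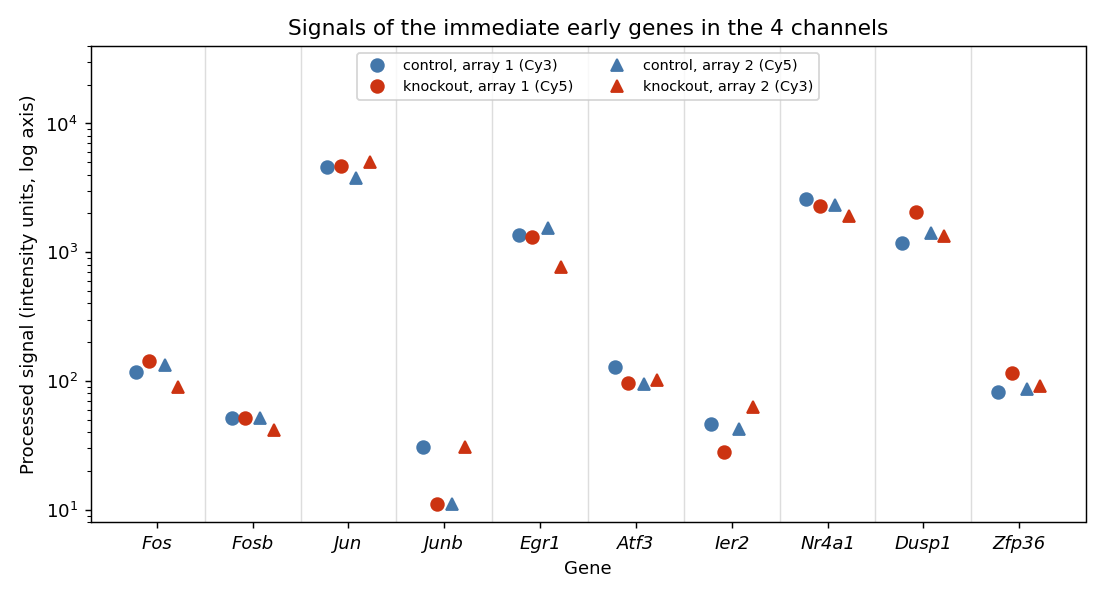
The processed signal of each member is plotted on a log axis for the control (blue) and the knockout (red) sample, with circles for array 1 and triangles for array 2. For *Junb* the signals pair by dye and not by genotype, and for *Egr1* the knockout signal of array 2 lies apart from the other 3. Heights are not comparable between genes, since each gene has its own probe. Signals were corrected within an array and were not scaled between the arrays.

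*Egr1* encodes a zinc finger transcription factor induced through SRF and ELK proteins. Its probe (A_51_P367866) is placed on chromosome 18 of mm9 from 35024395 to 35024454. The signals were 1320 in the knockout and 1351 in the control sample on array 1, and 774 and 1533 on array 2. The knockout signal of array 2 was the low one, while the other 3 values were between 1320 and 1533. As log2 ratios these are -0.03 and -0.99. Their mean, -0.51 ± 0.67 (SD), was the lowest among the members. The mean is smaller than the SD and rests on array 2. In 3.29% of all genes tested, the mean was at least this far from 0. With normexp background correction and loess the ratio of array 1 was 0.04, and with background-subtracted signals 0.13, so the direction on that array depended on the processing.

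*Nr4a1* encodes an orphan nuclear receptor, NUR77, and was the member on which the arrays differed least with processed signals. Its probe (A_51_P239654) is placed on chromosome 15 from 101105071 to 101105130. The signals were 2271 in the knockout and 2600 in the control sample on array 1, and 1900 and 2336 on array 2. The knockout sample was the lower on each array. As log2 ratios these are -0.19 and -0.30. Their mean, -0.25 ± 0.07 (SD), exceeds the SD of the arrays in size. A change of this size, a fold of 0.84, or a larger one was found in 15.1% of all genes tested. Among the background corrections tried, each with its own dye normalization, the mean lay between -0.25 and -0.20. With background-subtracted signals the ratios of *Nr4a1* were -0.03 and -0.44, further apart than those of *Jun*, at 0.21 and 0.20.

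*Dusp1* and *Zfp36* encode proteins that end the early response. DUSP1 removes phosphate from MAP kinases, and ZFP36, also called tristetraprolin, destabilizes messenger RNAs that carry AU-rich elements. The *Dusp1* signals were 2055 in the knockout and 1183 in the control sample on array 1, and 1342 and 1404 on array 2. The knockout signal of array 1 stood above the other 3, and the log2 ratios were 0.80 and -0.07. The mean was 0.37 ± 0.61 (SD), the highest among the members, and rests on array 1. The *Dusp1* probe is A_51_P430900, of which the files place 11 bases, on chromosome 17 from 26642526 to 26642536.

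The *Zfp36* probe is A_52_P80944, on chromosome 7 from 29161940 to 29161999. Its signals were 116 in the knockout and 81.6 in the control sample on array 1, and 92.0 and 86.4 on array 2. The knockout sample was the higher on each array. As log2 ratios these are 0.51 and 0.09. Their mean was 0.30 ± 0.30 (SD), and 10.4% of all genes tested had a mean at least as far from 0. With normexp and loess, the mean was 0.12.

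**Figure D4:**
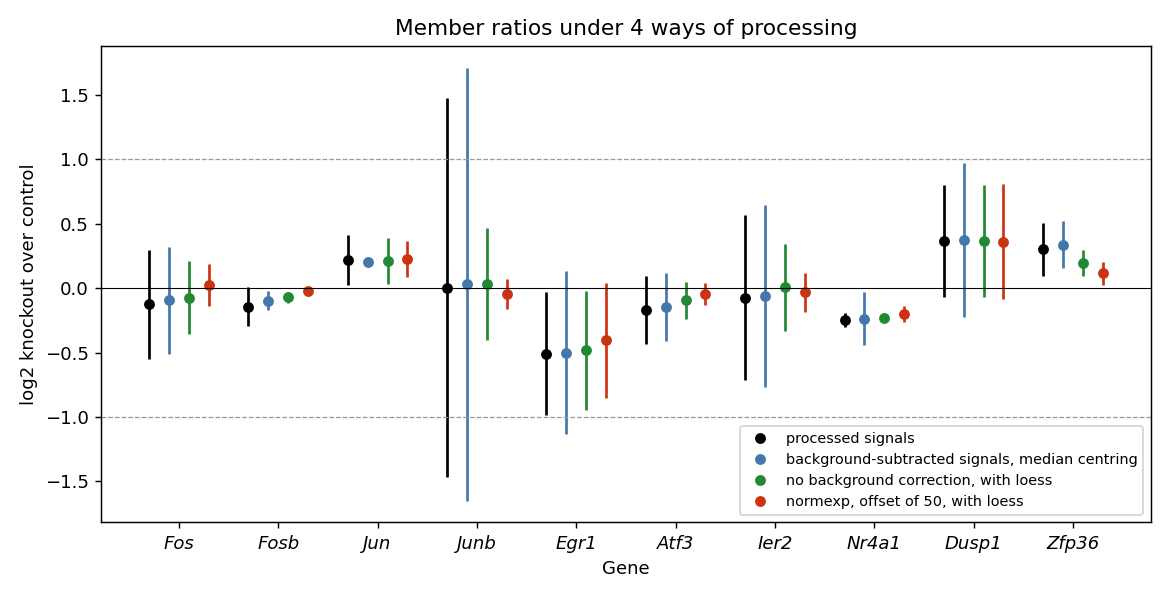
For each member, dots give the mean log2 ratio of knockout over control, and bars join the ratios of arrays 1 and 2. Shown are the processed signals and 3 other background corrections, each with its own dye normalization. Dashed lines mark a log2 ratio of 1 in size. The bar of *Junb* is the longest with processed signals and shrinks with an offset of 50. The means of all members but *Fos*, *Junb* and *Ier2* keep their side of 0.

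Promoter sequence is shown for *Zfp36*, *Nr4a1* and *Jun*, which had the same direction on both arrays. Sequences are those of RefSeq on GRCm38.p6, given 5′ to 3′ on the strand of the gene as the 120 bases before the transcription start. The window searched held 250 bases before and 50 after the start, with motifs on either strand set in capitals. Of the 10 members, 8 were in the promoter table, the other two being *Egr1* and *Ier2*. *Zfp36* lies at chr7:28379229-28379348 on the minus strand, *Nr4a1* at chr15:101266726-101266845 on the plus strand and *Jun* at chr4:95052223-95052342 on the minus strand.
Zfp36: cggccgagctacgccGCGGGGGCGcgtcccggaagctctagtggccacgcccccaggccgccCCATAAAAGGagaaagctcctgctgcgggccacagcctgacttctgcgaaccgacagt
Nr4a1: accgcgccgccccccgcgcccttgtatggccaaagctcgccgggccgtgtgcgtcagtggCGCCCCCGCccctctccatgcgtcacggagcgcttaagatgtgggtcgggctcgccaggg
Jun: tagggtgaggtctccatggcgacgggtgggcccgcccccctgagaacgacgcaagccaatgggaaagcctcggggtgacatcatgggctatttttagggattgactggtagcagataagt

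A CArG box, the binding site of SRF (CC, then 6 letters of A or T, then GG), was found in *Zfp36*, from 58 to 49 bases before the start, and in 1.81% of the promoters of 27025 genes. The site of EGR proteins (GCGNGGGCG) was found in 3 members, *Fosb*, *Nr4a1* and *Zfp36*, and in 6.27% of all genes. In *Nr4a1* it lies on the other strand, from 60 to 52 bases before the start. The cyclic AMP response element (TGACGTCA) was found in *Dusp1* and in 2.03% of all genes. The AP-1 site (TGANTCA) was found in 0 of the 8 members and in 8.97% of all genes, and the letters of a TATA box (TATAAA) in *Fos* and *Junb* and in 15.7% of all genes. This match lies from 33 to 28 bases before the start in *Fos*, and at bases 1 to 6 after it in *Junb*. These motifs did not overlap in the members. Only the letters given were searched, and only in this window, so variant or more distant sites would be missed. Of the members with the EGR site, *Zfp36* had a mean log2 ratio of 0.30, *Nr4a1* of -0.25 and *Fosb* of -0.14. The part of the motif in these ratios was not tested.

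The rest of the early response was read from lists of related genes. For comparison, 12.1% of all genes tested were higher and 15.6% were lower on both arrays. Among 13 other AP-1 genes and dimer partners, 12 were tested, of which 0 were higher and 3 were lower on both arrays, and the median log2 ratio was -0.08. The 3 genes were *Batf3*, a leukocyte bZIP factor, with log2 ratios of -0.35 and -0.63, *Atf7* with -0.26 and -0.33, and *Jdp2* with -0.32 and -0.00. With normexp and loess the mean of *Batf3* was -0.18 in place of -0.49 and that of *Atf7* -0.05 in place of -0.29, and *Jdp2* was above 0 on array 2, at 0.01. *Jund*, the member of the JUN family most present in resting cells, had -0.02 and 0.23. Of 7 other EGR and NR4A genes and EGR corepressors, 4 were tested, and *Nab2*, which represses EGR1 activity and is itself induced by it, was lower on both, with -0.05 and -0.19. On array 1, *Nab2* turned to 0.03 with normexp and to 0.12 with background-subtracted signals. *Nr4a2*, the paralog of *Nr4a1*, had -0.14 and 0.34. *Egr3*, *Egr4* and *Nr4a3* did not pass the limit on signal.

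Of 26 other inducible early genes, 24 were tested, with 5 higher and 3 lower on both arrays and a median log2 ratio of 0.06. With background-subtracted signals, 3 were higher and 4 were lower. *Arc*, a neuronal early gene, had 0.34 and 0.39, *Gadd45g*, a stress sensor, had 0.00 and 0.76, and *Klf6*, a zinc finger factor, had -0.51 and -0.12. Of 9 other MAP kinase phosphatases, 7 were tested, and 0 of these kept 1 direction under both labelings, against 1 with background-subtracted signals. *Dusp5* and *Dusp10* did not pass the limit on signal. None of the 3 other genes of the *Zfp36* family kept 1 direction, and of these *Zfp36l1* had 0.66 and -0.47 and *Zfp36l2* had 0.63 and -0.56. Among 18 kinases and transcription factors upstream of the early genes, 1 was higher and 2 were lower on both arrays, with a median of 0.00. *Rps6ka5*, a kinase that phosphorylates CREB, had 0.19 and 0.21, *Elk3* had -0.16 and -0.10, and *Mkl2*, a coactivator of SRF, had -0.08 and -0.12. These small ratios depended on the processing, as the mean of *Rps6ka5* was 0.04 with normexp in place of 0.20, and on array 1 *Mkl2* turned to 0.01 with normexp and to 0.10 with background-subtracted signals, where *Elk3* turned to 0.01. *Srf* itself had -0.42 and 0.23. None of the genes in these 6 lists passed the 2-fold limit.

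Heat shock genes, which also respond to the handling of tissue, were read beside the members. Of 8 tested, 1 gene, *Hspa1a*, passed the limit as higher in the knockout sample, against 0.315% of all genes tested. It encodes an inducible HSP70 chaperone. Its signals were 1148 in the knockout and 770 in the control sample on array 1, and 1445 and 501 on array 2. The knockout sample was the higher on each array, with log2 ratios of 0.57 and 1.53 and a mean of 1.05 ± 0.67 (SD). With normexp and loess the mean was 0.87, short of the limit. A near-identical copy, *Hspa1b*, was not found under its name, and the probe may read both genes. The means of the other 7 genes lay between -0.13 and 0.19, among them *Hspa8*, a constitutive relative, at -0.05, which had opposite directions on the arrays with background-subtracted signals (0.38 and -0.54). The list as a whole had a median of 0.03. The part of tissue handling in these values was not tested.

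**Figure D5:**
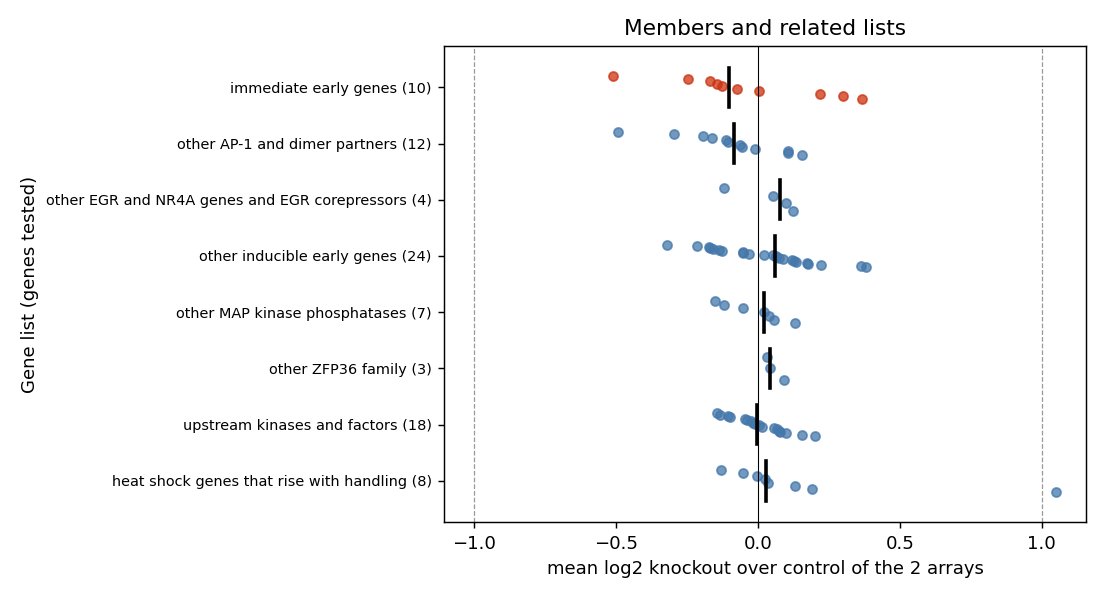
Dots are the mean log2 ratio of knockout over control of each gene tested, for the immediate early genes (red) and 7 related lists (blue), and black bars are the median of each list. Dashed lines mark a log2 ratio of 1 in size, and *Hspa1a* in the bottom row is the only gene beyond them.

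Leukocytes and vascular cells are further sources of early gene transcripts in whole kidney. Among 7 leukocyte markers, 6 were tested, with 0 higher and 1 lower on both arrays, a median log2 ratio of -0.03 and a range from -0.29 to 0.13. Among 4 endothelial markers 1 was higher and 2 were lower, with a median of -0.11 and a range from -0.34 to 0.06. With background-subtracted signals, 0 were higher and 2 lower. Among 4 markers of smooth muscle and mesangium, 0 were higher and 0 lower on both arrays, against 2 lower with background-subtracted signals. Their median was -0.17, with a range from -0.25 to -0.14. The leukocyte marker lower on both was the neutrophil gene *S100a8*, with -0.48 and -0.09, the latter turning to 0.01 with normexp. Of all genes tested, 12.1% were higher and 15.6% were lower on both arrays. All 3 podocyte markers were lower on both, with means from -0.32 to -0.23. In RNA of whole tissue, fewer cells of a type and less RNA per cell cannot be told apart, and the part of these cells in the ratios of the members was not tested.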

How the data were processed

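The deposited scanner tables were written by Agilent Feature Extraction, version 10.7.3.1 per the file headers and 10.5.1.1 in the submitters' processing notes. In these deposited tables each spot has a raw intensity, a background-subtracted intensity and a processed intensity, corrected for background, spatial trends and dyes within the array. The authors also deposited log10 ratios of red over green signals, in the scanner files and, turned to knockout over control, in the matrix of the series.

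Here, control spots and spots that the software marked as non-uniform or outlying were dropped, processed signals were taken to log2, and ratios were turned to knockout over control by the dye labels. Spots of a probe were averaged, and a gene was read from its probe of highest mean signal. Genes were tested where a genotype had a call well above background on both of the 2 arrays. The limit for a change was 2-fold. The named genes were the members, *Cnnm2*, markers of the tissue, and up to 3 genes per list with the largest mean in size among those of the same direction on both arrays and above background in the 4 channels. *Srf*, *Jund*, *Nr4a2*, *Zfp36l1*, *Zfp36l2* and genes that did not pass the limit on signal were added after their values were seen. Members and lists were chosen with earlier results of these data known. Motifs were searched in RefSeq promoters of 300 bases. Alternatives included other background corrections (normexp with an offset of 50, none, a floor of 1 for subtracted signals). These also replaced the dye correction of the processed signals. Loess was used with normexp and without background correction, and median centring of each array with subtracted signals. Further alternatives were sources of the ratio, limits on signal, the median over probes, each array alone, the methods' t-test and limma 3.58.1. Work was done in R 4.3.3 and in Python 3.11.15 (matplotlib 3.10.9, scipy 1.17.1, pandas 2.3.3, numpy 2.4.6). The number of arrays limits the precision.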

Additional observations from a re-analysis of the deposited data

How the results depend on the processing

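*Jun* and *Zfp36* were higher and *Nr4a1* was lower on both arrays under every alternative run with both arrays. *Egr1* was lower on both without background correction, but its array 1 ratio was 0.04 with normexp and 0.13 with background-subtracted signals. The count of members past the 2-fold limit stayed at 0 in each direction under every alternative run with both arrays. Of the alternatives run with both arrays, only the other background corrections could move the ratios of the members. Each of these also changed the dye normalization, and the steps cannot be told apart. For the members, the other sources of the ratio repeat the processed values. Each member has 1 probe, no marked spot and calls well above background in the 4 channels. The methods' t-test over the arrays put 0 members and 984 of 19707 genes past its threshold of 0.1, and 0 genes after Benjamini-Hochberg adjustment. With limma, 0 genes passed an adjusted p of 0.05, while 256 genes and 0 members passed 0.05 unadjusted. Both take the arrays as their replicates and so, if these carry the same RNA, cover the spread between labelings and hybridizations and not that between mice. A single array counted between 0 and 1 members higher and between 0 and 1 lower by the limit, and the member was *Junb* in each case. With a single array, 5 members were above 0 and 5 below on either array. With normexp and loess, 1 member was lower on both arrays (*Nr4a1*) in place of 2 (*Egr1* and *Nr4a1*), and without background correction 3 were, with *Fosb*. With background-subtracted signals the 2 were *Fosb* and *Nr4a1*. With normexp and loess, the median of the members was -0.025 against -0.10. That median was -0.078 with background-subtracted signals, -0.033 with no background correction and loess, and between -0.013 and 0.013 on each array alone. Over all genes tested, against 62 higher and 56 lower, normexp and loess left 7 and 8 past the limit, and loess without background correction left 12 and 12. Dropping the limit on signal raised the counts to 232 and 179, while asking for a signal above background in each of the 4 channels left 37 and 27. A single array gave between 576 and 1097 genes higher and between 633 and 882 lower, over more genes. The cause of these shifts was not tested beyond the number of genes entered. The means of *Fos* and *Junb* changed sign with normexp and loess, and that of *Ier2* without background correction, each by less than the SD of the arrays. Each ratio pairs the genotypes within an array, and the methods' t-test was paired over the arrays, so no further block was fitted.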
